A study of Bos taurus with 11 samples.

Results

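Milk fat synthesis genes were followed through RNA-Seq libraries of bovine mammary epithelial cells (BMEC) kept short of a single essential amino acid (EAA). The genes were 5 enzymes of milk fat synthesis chosen by their Ensembl identifiers: FASN (ENSBTAG00000015980), SCD (ENSBTAG00000045728), ACACA (ENSBTAG00000017567), DGAT1 (ENSBTAG00000026356) and LPL (ENSBTAG00000012855). Of these, 4 had a row among the 27607 genes of the deposited counts, while the identifier given for SCD matched no row, so SCD is not analysed here. The cells were primary BMEC of lactating Holstein cows, used at the third passage and differentiated for 5 d with insulin, prolactin and hydrocortisone (5 µg/mL each). The base medium of every group contained 3.5 mM glucose and 2 mM sodium acetate, and treatments lasted 60 h. The control medium (CTL) supplied 80 µM lysine, 20 µM methionine and 40 µM histidine. Histidine was lowered to 10 µM in LH, lysine to 20 µM in LK and methionine to 5 µM in LM, with the other EAA as in CTL. The comparisons used 2 CTL, 3 LH, 3 LK and 2 LM libraries, and LM replicate 2, which was left out of the study for failed quality checks, is given beside them, while CTL replicate 3 is not analysed here. How many cows the cells came from is not given in the sources used here, so p-values measure the spread between these cultures only. Passaged cells on plastic are a model of the secretory epithelium without its gland.

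Milk fat is mostly triacylglycerol, and its fatty acids come either from new synthesis in the mammary epithelial cell or from lipids of the blood. In ruminants, acetate is the main carbon source for new synthesis. Acetyl-CoA carboxylase α, the product of ACACA, makes malonyl-CoA, and fatty acid synthase, the product of FASN, builds the fatty acid chain from it. Stearoyl-CoA desaturase (SCD) introduces a double bond. Lipoprotein lipase (LPL) releases fatty acids from circulating lipoproteins for uptake, and diacylglycerol acyltransferase 1 (DGAT1) joins the last fatty acid to the glycerol backbone.

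The 10 libraries compared held 199231024 to 278354731 reads on genes, and LM replicate 2 held 173982461. Levels are given as CPM (reads of a gene relative to a common library total) after TMM scaling, here called normalized CPM, which correct for sequencing depth but not for the length of a gene, so levels are compared between media and not between genes. Libraries differed in how many genes had no reads. Among genes averaging 50 to 100 reads in the other libraries, 20.6% to 32.1% were at 0 in CTL, 2.94% to 10.6% in LH, 1.67% to 8.67% in LK, 15.1% to 26.1% in LM and 44.2% in LM replicate 2. Every gene whose reads summed to more than 10 in these 10 libraries entered edgeR's quasi-likelihood test, p-values were adjusted over all 18345 genes tested (false discovery rate, FDR), and all 4 genes with a row were among them. In such bulk libraries, fewer cells of a type and less RNA per cell cannot be told apart. The table pairs no names with its identifiers, so other genes of the pathway and markers of the epithelium or of other cell types were not analysed here.

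FASN expression was lower in each deficiency than in CTL. It fell by 24.3% in LH, fell by 13.9% in LK and fell by 15.8% in LM. Of the 4 genes, FASN was the 1 that passed an FDR of 0.05, in each of the 3 comparisons with CTL, and over all genes tested 5.73%, 13.7% and 7.45% passed in LH, LK and LM. At an unadjusted p under 0.05 there were 2 of the 4 genes in LH, FASN and ACACA, and 1 in LK and LM, against 17.1%, 24.6% and 19.1% of all genes. With edgeR, 0 of the 4 genes met the definition of a differentially expressed gene (DEG) that the study used, an FDR under 0.05 with a log2 fold change of 1 or more in either direction, which 1.17%, 3.12% and 1.47% of all genes met, and with DESeq2 the number was also 0, against 2.18%, 4.61% and 2.95% of all genes.

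**Figure D1:**
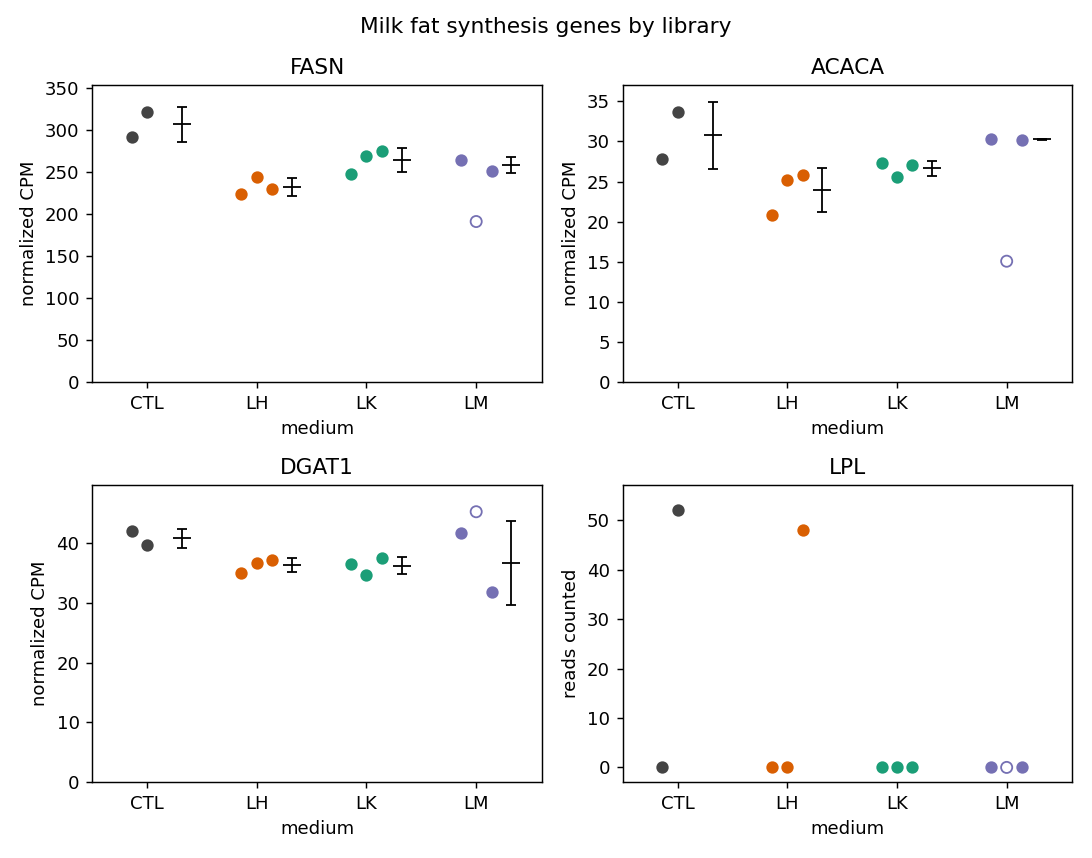
Level of each gene in each library, by medium. Filled points are the libraries compared, the open point is LM replicate 2, and the bars show the mean ± SD of the filled points. The vertical axes show normalized CPM for FASN, ACACA and DGAT1 and reads counted for LPL. The FASN points of LH, LK and LM all lie below both CTL points, whereas LPL reads occur in 2 of 11 libraries.

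For FASN, the CTL libraries had 292 and 322 normalized CPM. The LH libraries had 224, 244 and 229.65 normalized CPM, and the LK libraries had 248, 269 and 275. LM replicates 1 and 3 had 265 and 252 normalized CPM. All 8 libraries of the deficient media were therefore below both CTL libraries, and the LH libraries were also below all LK and LM libraries compared. From highest to lowest, means were 307 ± 20.8 in CTL (SD, n = 2), 264 ± 14.3 (SD, n = 3) in LK, 258 ± 9.18 in LM (SD, n = 2) and 232 ± 10.4 in LH (SD, n = 3), of which the neighbours LK and LM overlapped. An absence of overlap with CTL in either direction was found for 27.8% (LH), 39.4% (LK) and 37.9% (LM) of all genes.

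Relative to CTL, FASN fell by 0.40 on the log2 scale in LH (standard error 0.07, 95% confidence interval -0.54 to -0.26, edgeR adjusted p = 3.24e-05). Of all genes tested, 2.55% were called lower in LH, and 0.861% had a p-value as small as that of FASN. The call was kept without any 1 library of CTL or LH, where the log2 fold change lay between -0.47 and -0.33. It was lost when LM replicate 2 was added to the fit, where the log2 fold change was -0.40 and the edgeR adjusted p = 0.0905, the highest of the 13 alternatives, which went down to 2.04e-07. With only the CTL and LH libraries in the fit, the edgeR adjusted p was 0.00552. The shares of genes at 0 given above differed between CTL and LH without overlap, and their part in the result was not tested.

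The estimates for FASN were closer to 0 in the other deficiencies. In LK, the log2 fold change of FASN was -0.22 (standard error 0.07, 95% confidence interval -0.35 to -0.08, edgeR adjusted p = 0.0259), where 6.31% of all genes were called lower and 11.2% had a p-value as small. In LM it was -0.25 (standard error 0.08, 95% confidence interval -0.40 to -0.09, edgeR adjusted p = 0.0320), where 3.67% of all genes were called lower and 6.11% had a p-value as small. The shares of genes at 0 also differed between CTL and LK without overlap, while those of CTL and LM overlapped. Their part in these results was not tested. Both calls of FASN depended on single libraries. In LK, the edgeR adjusted p was 0.298 without CTL replicate 2 and 0.185 without LK replicate 1. In LM it was 0.255 without CTL replicate 2, 0.0878 without LM replicate 1 and 0.214 without LM replicate 3. With library size as the only scaling, it was 0.0754 in LK and 0.114 in LM, and with LM replicate 2 added it was 0.317 and 0.0642. Over all alternatives the edgeR or DESeq2 adjusted p ranged from 0.00588 to 0.317 in LK and from 0.00945 to 0.255 in LM.

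**Figure D2:**
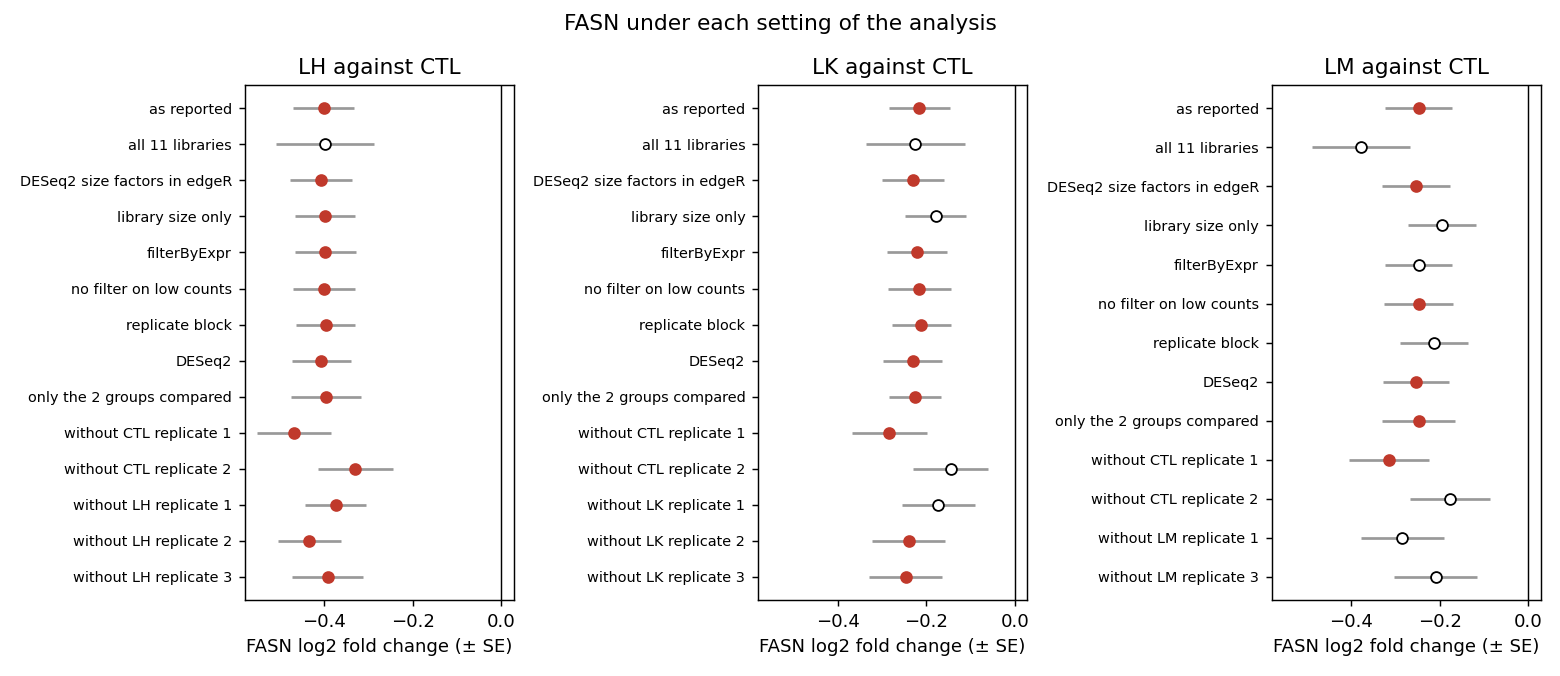
FASN log2 fold change relative to CTL under each setting of the analysis, with 1 panel per deficiency. Points show the estimate and lines ± its standard error on the horizontal axis; filled points passed an FDR of 0.05 and open points did not. All estimates lie below 0, and the LH panel has 1 open point, for all 11 libraries.

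Deficiencies were also compared with each other in the same fit, where edgeR called 0 of the 4 genes at an FDR of 0.05. Over all genes, 7.21% were called between LK and LH, 2.44% between LM and LH and 5.38% between LK and LM. At an unadjusted p under 0.05 the numbers were 1, 2 and 0 of the 4 genes, against 16.7%, 12.5% and 16.5% of all genes. DESeq2 called 1, 0 and 0 of the 4 genes, against 8.37%, 3.86% and 6.78% of all genes. FASN had a log2 difference of 0.19 between LK and LH (standard error 0.06, 95% confidence interval 0.06 to 0.31, edgeR adjusted p = 0.0577), with the 3 LK libraries above the 3 LH libraries, an absence of overlap found for 23.8% of all genes. This comparison lay close to the threshold, as the FDR was under 0.05 with DESeq2 (adjusted p = 0.0333) and, in edgeR, with library size as the only scaling (adjusted p = 0.0160) or no limit on low counts (adjusted p = 0.0470). It was also under 0.05 without LH replicate 2 (edgeR adjusted p = 0.0226) or without LK replicate 1 (edgeR adjusted p = 0.0394), and the adjusted p ranged from 0.0160 to 0.630 over the alternatives. Between LM and LH the log2 difference of FASN was 0.15 (standard error 0.07, edgeR adjusted p = 0.327), without overlap, as for 25.0% of all genes, and it was 0.021 with LM replicate 2 added. Between LK and LM the log2 difference of FASN was 0.03 (95% confidence interval -0.11 to 0.17, edgeR adjusted p = 0.894) and was -0.016 without LM replicate 3 and 0.15 with LM replicate 2 added.

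ACACA encodes the enzyme that commits acetyl-CoA to fatty acid synthesis, directly upstream of FASN. Its level was 27.8 and 33.7 normalized CPM in the CTL libraries and 20.8, 25.2 and 25.9 in the LH libraries. The LK libraries had 27.3, 25.6 and 27.1 normalized CPM, and LM replicates 1 and 3 had 30.3 and 30.2. LH and LK libraries lay below both CTL libraries, an absence of overlap found for 27.8% (LH) and 39.4% (LK) of all genes. LM replicates 1 and 3 lay between the CTL libraries. Mean levels were 30.7 ± 4.14 in CTL (SD, n = 2), 30.3 ± 0.0200 in LM (SD, n = 2), 26.7 ± 0.917 (SD, n = 3) in LK and 24.0 ± 2.73 in LH (SD, n = 3), and of the neighbours in this order only LM and LK did not overlap, as for 34.2% of all genes.

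No comparison of ACACA passed an FDR of 0.05. The log2 difference from CTL was -0.36 in LH (standard error 0.13, 95% confidence interval -0.61 to -0.10, edgeR adjusted p = 0.0871) and -0.20 in LK (95% confidence interval -0.46 to 0.05, edgeR adjusted p = 0.338). In LM it was -0.02, with a 95% confidence interval of -0.30 to 0.26 (edgeR adjusted p = 1), and ranged from -0.29 with LM replicate 2 added to 0.12 without CTL replicate 2, with 0.030 under library size as the only scaling. The interval in LH does not include 0 because it is not adjusted for the number of genes tested. The difference in LH moved with single libraries. It was -0.49 without CTL replicate 1 (edgeR adjusted p = 0.0477), -0.21 without CTL replicate 2 (edgeR adjusted p = 0.476) and -0.27 without LH replicate 1 (edgeR adjusted p = 0.283), and 1 of 13 alternatives passed the FDR, with adjusted p-values of 0.0477 to 0.592. In LK the difference was -0.34 without CTL replicate 1 and -0.06 without CTL replicate 2. Between LM and LH, ACACA had a log2 difference of 0.33 (standard error 0.13, 95% confidence interval 0.08 to 0.59, edgeR adjusted p = 0.189), which was 0.071 with LM replicate 2 added (edgeR adjusted p = 0.943).

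DGAT1 encodes the enzyme of the final step of triacylglycerol assembly. It had 41.9 and 39.6 normalized CPM in CTL, 35.0, 36.6 and 37.2 in LH and 36.5, 34.7 and 37.5 in LK. LM replicates 1 and 3 had 41.6 and 31.7 normalized CPM and thus spanned all LH and LK libraries. The mean levels were 40.8 ± 1.64 in CTL (SD, n = 2), 36.7 ± 7.00 in LM (SD, n = 2), 36.3 ± 1.15 in LH (SD, n = 3) and 36.2 ± 1.43 in LK (SD, n = 3). Neighbours in this order overlapped, although LH and LK each lay below both CTL libraries, as for 27.8% and 39.4% of all genes in either direction.

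The log2 difference of DGAT1 from CTL was -0.17 in both LH and LK (95% confidence intervals -0.40 to 0.06) and -0.15 in LM (-0.40 to 0.10), with edgeR adjusted p-values of 0.489, 0.382 and 0.555. The value in LM was -0.36 without LM replicate 1 and 0.033 without LM replicate 3. These intervals include no change as well as decreases as large as that of FASN in LM. Among the deficiencies, DGAT1 differed by 0.02 or less on the log2 scale, and the 95% confidence interval between LK and LH was -0.21 to 0.20. The differences that involve LM moved with its libraries, as LM against LH was -0.19 without LM replicate 1 and 0.20 without LM replicate 3, and LK against LM was 0.19 and -0.21.

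**Figure D3:**
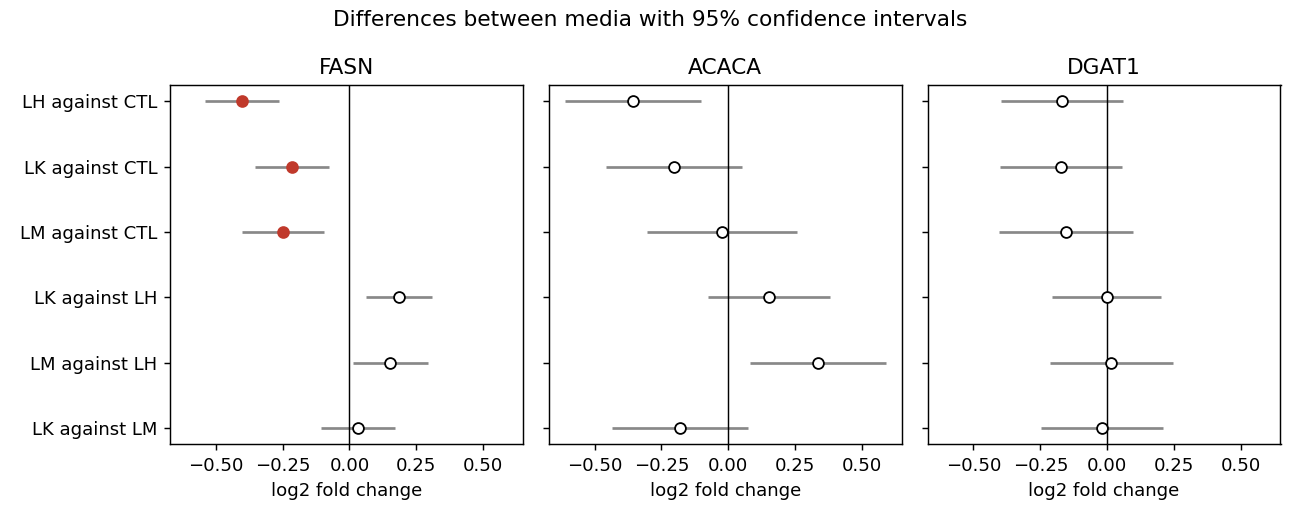
Log2 fold changes of FASN, ACACA and DGAT1 (horizontal axes) in the 6 comparisons between media, first medium minus second. Lines are 95% confidence intervals that are not adjusted for multiple testing, filled points passed an FDR of 0.05 over all genes tested and open points did not. FASN has 3 filled points, from -0.40 to -0.22, and the other genes have none.

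LPL was close to undetected in these cultures. Its count was 52 reads in CTL replicate 2 and 48 reads in LH replicate 3, and 0 in the other 9 libraries, LM replicate 2 included. With so few libraries holding reads, LPL could not be ordered between media. A count of 0 allows up to 3 reads, or 0.0117 to 0.0172 CPM without scaling in these 9 libraries. This limit covers counting error only, because copies of a molecule made by PCR cannot be told from separate molecules here. Mates of a read pair may also have been counted as separate reads. Zeros were more frequent than counting error gives, as up to 32.1% of the genes averaging 50 to 100 reads elsewhere were at 0 in a library compared, so LPL may have been above this limit. Sparse counts of this size were common, as 710 genes had reads in exactly 2 of the 11 libraries, with a median of 20 reads where they had any, and 191 of them (26.9%) reached 52 reads or more in a library. edgeR's adjusted p for LPL was 0.962 in LH, 0.267 in LK and 0.443 in LM relative to CTL, and no difference was called.

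The 3 genes with substantial counts were then compared within each library, using the ratio of their reads. Such a ratio is free of any scaling between libraries, and its differences between media do not depend on gene length. The FASN to ACACA ratio was 10.0 ± 0.673 in CTL (SD, n = 2), 9.92 ± 0.745 (SD, n = 3) in LK, 9.76 ± 0.933 in LH (SD, n = 3) and 8.54 ± 0.298 in LM (SD, n = 2). Groups overlapped except that LM replicates 1 and 3, at 8.75 and 8.33, were below all other libraries compared, whereas LM replicate 2 was above all of them at 12.7. The FASN to DGAT1 ratio was 7.54 ± 0.813 in CTL (SD, n = 2), 7.31 ± 0.487 (SD, n = 3) in LK, 7.16 ± 1.12 in LM (SD, n = 2) and 6.41 ± 0.248 in LH (SD, n = 3). The 3 LH libraries, with ratios of 6.40, 6.67 and 6.17, were below both CTL libraries at 6.97 and 8.12 and below the 3 LK libraries at 6.80, 7.77 and 7.35, and overlapped with LM. LM replicate 2 had the lowest FASN to DGAT1 ratio, 4.23. The ACACA to DGAT1 ratio overlapped between CTL and each of the other media, at 0.663 and 0.850 in CTL against 0.596 to 0.953 in the deficient media, and was 0.334 in LM replicate 2. The 3 LH libraries, at 0.596 to 0.696, were below the 3 LK libraries, at 0.722 to 0.748, and below LM replicates 1 and 3, at 0.727 and 0.953. How often ratios of other genes separate in these ways was not tested.

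**Figure D4:**
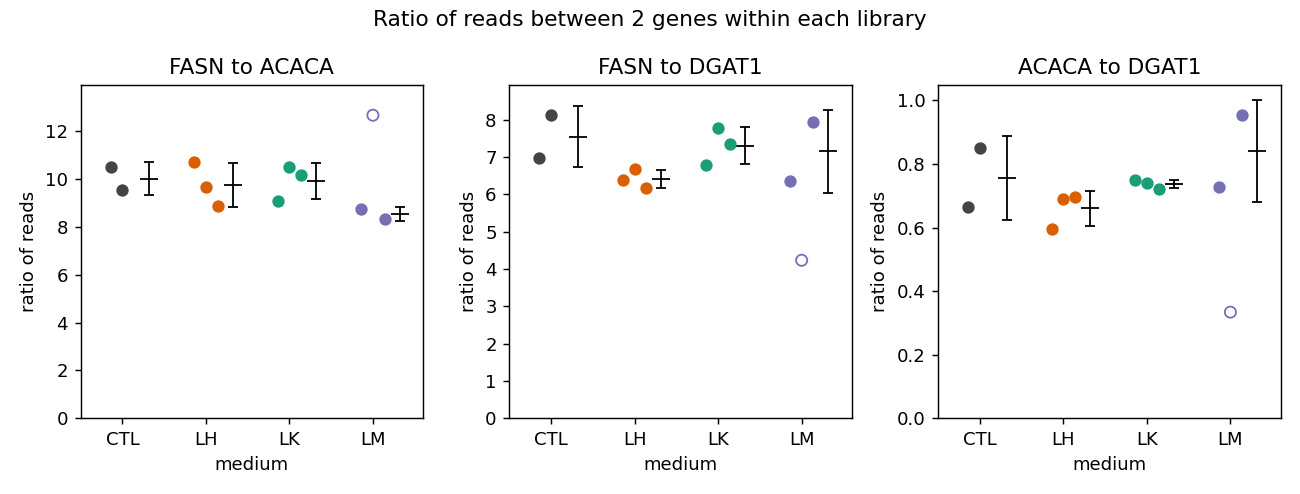
Ratio of the reads of 2 genes within each library (vertical axes), by medium. Filled points are the libraries compared, with mean ± SD as bars, and the open point is LM replicate 2. The FASN to DGAT1 ratio of LH lies between 6.17 and 6.67, and LM replicate 2 is the highest library for FASN to ACACA and the lowest in the other panels.

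Whether levels or ratios differed among the 4 media at all was tested over all 25200 ways to label the 10 libraries, a test chosen after the data had been seen. Differences between media made up 85.5% of the squared deviation of log2 FASN level (exact permutation test, one-sided, p = 0.00333, 0.0200 after Benjamini-Hochberg adjustment over 6 tests). The share was 67.9% for ACACA (exact permutation test, p = 0.0297, adjusted 0.0890) and 33.4% for DGAT1 (exact permutation test, p = 0.462, adjusted 0.462). For the ratios of FASN to ACACA, FASN to DGAT1 and ACACA to DGAT1 it was 49.1%, 44.9% and 45.1% (exact permutation tests, p = 0.240, 0.289 and 0.260, each 0.347 after adjustment). A change of 1 of these genes relative to another was therefore not called. With LM replicate 2 added, the share for FASN was 61.2% (exact permutation test, p = 0.0564), and for ACACA it was 20.3% (exact permutation test, p = 0.693). How often other genes reach such shares was not tested.

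LM replicate 2 stood apart from the other LM libraries in FASN and ACACA. With all 11 libraries scaled together, it had 191 normalized CPM of FASN, which was 74.4% of the mean of LM replicates 1 and 3, and 15.1 of ACACA, which was 50.1%. Both values were below those of all 10 libraries compared. DGAT1 was at 45.2 normalized CPM in it, against 41.5 and 31.5 in LM replicates 1 and 3. The library also had the lowest total and the largest share of genes at 0, and the part of these in its levels was not tested. With it in the fit, the log2 fold change of FASN in LM was -0.38.

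Profiles over the 10 libraries were compared by the root mean square difference of log2 CPM, each gene centred on its mean, among genes averaging at least 200 normalized counts. FASN differed from ACACA by 0.12, from DGAT1 by 0.13, and ACACA from DGAT1 by 0.18 on the log2 scale. The gene most like FASN was ENSBTAG00000002014, at a difference of 0.05, whose log2 fold changes relative to CTL were -0.30 (LH), -0.15 (LK) and -0.19 (LM). Their adjusted p-values in edgeR were 0.0513, 0.359 and 0.324. The gene most like ACACA was ENSBTAG00000020485, at a difference of 0.07. Names of these genes are not paired with identifiers in the table.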

How the data were processed

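Per the labels, TruSeq stranded mRNA libraries were prepared from total RNA. Reads were trimmed by the authors with fastp, mapped to ARS-UCD1.2 with STAR and summarised over Ensembl genes with featureCounts, whose strand and read-pair options no source used here gives. Gene totals exceeded the read pairs that the study lists for each deposited library. Mates of a pair may therefore have been counted as separate reads. The authors deposited unnormalized counts of 11 libraries. Groups and replicates follow the sample titles, which the column names match. Members and tests were chosen with earlier results of these data known. Names of the members were supplied with their identifiers, and of 37063 RefSeq genes (assembly ARS-UCD2.0) 0 carried an Ensembl identifier, so planned pathway, marker and promoter lists, coordinates and sequences are not used here.

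The tests used edgeR 4.0.16 in R 4.3.3: TMM, genes with more than 10 reads over 10 libraries, 1 quasi-likelihood fit with 4 groups, Benjamini-Hochberg adjustment, standard errors from the F statistic. LM replicate 2 was scaled with all 11 libraries. Alternatives were DESeq2 1.42.0, other scalings, limits and libraries, and a replicate block. Genes named are the members and, for FASN and ACACA, the most similar identifier with at least 0.5 times the member's SD (prior count 2). The search was not made for LPL. Of the identifiers most similar to FASN, ACACA and DGAT1, all with a negative but uncalled log2 fold change in LK, 2 are printed. Both tools were tested on simulated data. Figures used Python 3.11.15 and matplotlib 3.10.9.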

Additional observations from a re-analysis of the deposited data

Results flagged for a closer look

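DGAT1 had 45.2 normalized CPM in LM replicate 2, a library outside the comparisons, which was above both CTL libraries (41.7 and 39.5 with all 11 libraries scaled together). No test for outlying libraries was made, as each group held only 2 or 3.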

How the results depend on the processing

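The number of the 4 genes with an FDR under 0.05 was 1 in LH, LK and LM relative to CTL and 0 between deficiencies. It was 0 relative to CTL with all 11 libraries in each deficiency, with library size only in LK and LM, and with filterByExpr or the replicate block in LM. With all 11 libraries, calls over all genes also fell, from 1051 to 271 in LH, 2508 to 1110 in LK and 1366 to 685 in LM, whereas with library size only they were 2633 in LK and 1403 in LM. In LM they were 1103 with filterByExpr and 1157 with the block. The number of the 4 genes called was 1 between LK and LH with library size only, no limit on low counts, the replicate block or DESeq2, where 7.69%, 7.73%, 8.24% and 8.37% of all genes were called. Leaving out single libraries gave 1 to 2 in LH, 0 to 1 in LK, 0 to 1 in LM and 0 to 1 between LK and LH, with 707 to 1209, 1856 to 2495, 714 to 1362 and 894 to 1564 of all genes called. The number past the thresholds of the study was 0 in every alternative run. The causes were not tested.

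The log2 fold change of FASN relative to CTL was negative in every alternative run, from -0.47 to -0.33 in LH, -0.28 to -0.14 in LK and -0.38 to -0.18 in LM, and 12 of 13, 9 of 13 and 5 of 12 alternatives passed the FDR. Some values that were not called changed sign, the largest of them the -0.18 of ACACA between LK and LM and the -0.15 of DGAT1 in LM. ACACA in LM was at 0.030 with library size only, and at 0.071 between LK and LM with all 11 libraries. DGAT1 was at 0.033 between LK and LH with library size only, and with the replicate block at -0.0037 between LM and LH and 0.00042 between LK and LM. ACACA in LM was at -0.29 with all 11 libraries and without single libraries ranged from -0.15 to 0.12, and DGAT1 in LM from -0.36 to 0.033. DGAT1 ranged from -0.028 to 0.017 between LK and LH, from -0.19 to 0.20 between LM and LH and from -0.21 to 0.19 between LK and LM, and FASN from -0.016 to 0.075 between LK and LM.

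Whether same-numbered libraries of different media share more than a number is not given in the sources used here. Of 12 same-numbered pairs, 0 had deviations from their group means correlated over 0.1 (-0.03 to 0.08 across 12747 genes). With so few libraries per group, these correlations cannot decide the question. The replicate block changed the call of FASN in LM (edgeR adjusted p = 0.0887) and between LK and LH, and no other call. With 2 CTL libraries, the confidence intervals of ACACA and DGAT1 relative to CTL span 0.46 to 0.56 log2 units.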
